A study of Mus musculus with 55 samples.

Results

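MHC class I molecules carry short peptides from inside the cell to its surface, where CD8+ T cells and natural killer cells inspect them. Each molecule is a heavy chain, folded into α1, α2 and α3 domains, bound to the invariant light chain beta-2-microglobulin, and it is loaded with peptide in the endoplasmic reticulum. In the mouse the heavy chains are encoded by the H2 complex on chromosome 17, one of the most polymorphic regions of the genome, and laboratory and wild-derived strains carry different H2 haplotypes.

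The genes of this system followed here, 7 of the 37620 genes in the tables, were taken by symbol and measured in the livers of Collaborative Cross (CC) mice. The 6 heavy chain genes were H2-K1 and H2-D1, the classical genes that present peptides to CD8+ T cells, H2-Q4, H2-Q7 and H2-Q10 of the Q region, and H2-T23 of the T region. H2-Q7 belongs to the genes of the Qa-2 antigen, H2-Q10 encodes a class I protein that hepatocytes secrete, and H2-T23 encodes Qa-1, a ligand of inhibitory receptors on natural killer cells. The light chain gene was B2m, on chromosome 2. Strains of the CC are recombinant inbred lines bred from 8 founder strains, among them C57BL/6J and the wild-derived WSB/EiJ, PWK/PhJ and CAST/EiJ.

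Liver poly(A) RNA of 55 untreated male mice from 29 CC lines had been sequenced, with 1 mouse in 8 lines, 2 mice in 16 lines and 3 mice in 5 lines. The mice were 8 to 11.9 weeks old, weighed 12.8 to 38 g and were fed rodent chow. The lines were at different generations of inbreeding, so line mates need not be identical throughout the genome. The line was the only group, so every test of lines below sets lines against each other, and the spread between line mates is its error. Body weight, age and the likeness between genes were instead examined over line means. Founder haplotypes of the lines at H2 were not used here, so which founder a line carries there was not tested. The libraries held 20.5 to 34.0 M estimated fragments assigned to genes, and the median was 27.7 M. Hepatocyte transcripts dominated as the tissue label says, with Alb at a mean of 31500 FPKM over lines, whereas the 12 lymphocyte markers summed to 0.98 to 12.2 FPKM. In bulk liver, fewer cells of a type and less RNA per cell cannot be told apart.

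Before any level is read, the labels of 2 lines need a remark. Over 11284 genes with a maximum of at least 2 FPKM, 42 of the 47 mice that had a line mate correlated best with a line mate, on log2(FPKM + 1) centred by gene. The 5 exceptions were the 2 mice of IL-1052 and the 3 mice of IL-2750. Within IL-2750, replicates 1 and 3 still correlated with each other at r = 0.71, whereas replicate 2 correlated with them at -0.04 and 0.11. Replicate 1 of IL-1052 correlated at r = 0.73 with replicate 3 of IL-2750 and at -0.07 with its own line mate, and replicate 2 of IL-1052 was closest to replicate 2 of IL-2750, at 0.57. The mice were kept in the lines their labels give, and the counts of lines called are also given without these lines. For those counts the share called over all genes is not given, so a rise or fall is not particular to the members.

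The heavy chains are close relatives, and short reads are shared among them. The 3 extracellular domains are encoded by coding exons 2, 3 and 4, which measured 270, 276 and 276 bases in 1 transcript chosen for each of the 6 genes. Against H2-K1, identity in coding exon 3 (α2 domain) was 91.3% for H2-Q4, 88.0% for H2-D1, 86.6% for H2-Q7 and H2-Q10, and 70.7% for H2-T23. Coding exon 4 (α3 domain) was more alike, at 92.8% to 96.0%, and H2-T23 reached 95.3% there. The first 90 bases of coding exon 3 of 5 genes show how far the peptide-binding domain diverges within the family; they were read from the mouse genome NCBIM37 (mm9) and the capitals mark bases that differ from H2-K1.
H2-K1, chr17:34136402-34136491, minus strand: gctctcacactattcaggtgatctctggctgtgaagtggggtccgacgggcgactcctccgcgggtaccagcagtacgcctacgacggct
H2-Q4, chr17:35517306-35517395, plus strand: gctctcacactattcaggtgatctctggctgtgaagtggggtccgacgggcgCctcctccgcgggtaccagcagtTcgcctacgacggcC
H2-D1, chr17:35400784-35400873, plus strand: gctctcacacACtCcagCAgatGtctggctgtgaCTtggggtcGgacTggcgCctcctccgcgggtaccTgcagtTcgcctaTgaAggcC
H2-Q10, chr17:35607771-35607860, plus strand: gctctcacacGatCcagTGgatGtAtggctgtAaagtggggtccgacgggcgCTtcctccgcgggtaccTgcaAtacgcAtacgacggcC
H2-T23, chr17:36168769-36168858, minus strand: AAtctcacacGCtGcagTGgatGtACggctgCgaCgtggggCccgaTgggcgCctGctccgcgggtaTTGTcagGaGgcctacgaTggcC
In this stretch H2-Q4 differed from H2-K1 at 3 bases, H2-Q10 at 13, H2-D1 at 16 and H2-T23 at 24. The first 90 bases of coding exon 4 show the reverse for H2-T23, which differed at only 9 bases there.
H2-K1, chr17:34134416-34134505, minus strand: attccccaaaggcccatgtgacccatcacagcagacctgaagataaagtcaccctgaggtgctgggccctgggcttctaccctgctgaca
H2-T23, chr17:36167953-36168042, minus strand: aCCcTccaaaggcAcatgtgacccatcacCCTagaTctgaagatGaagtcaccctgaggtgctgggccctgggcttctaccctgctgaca

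Because the reads were 50 bases long, each member's transcripts were cut into all words of 50 bases and looked up in the transcripts of every other gene, on both strands. No word of B2m occurred in another gene. Of the words of H2-K1, 10.3% did, of H2-D1 12.5%, of H2-T23 16.3%, of H2-Q10 18.7%, of H2-Q7 27.3% and of H2-Q4 33.5%. H2-Q7 and H2-Q10 shared 631 words with each other, and H2-Q4 shared 399 with Gm11131, a long noncoding RNA annotated on its opposite strand. B2m and H2-T23 also overlap genes annotated on the opposite strand (Patl2, and 3 processed transcripts including BC023719). Fragments that match several genes are divided among them by estimation, so levels of H2-Q4 and H2-Q7 in particular are uncertain. All reads were aligned to 1 reference, that of C57BL/6J, whatever haplotype a line carries, and the part of this alignment in the levels below was not tested.

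Class I genes share a compact regulatory region just before the start, with a site for NF-κB (enhancer A), an element bound by interferon regulatory factors and a CCAAT box. The 250 bases before the start of 3 members are shown because H2-K1 and B2m were the pair of members most alike over the 29 line means and H2-Q10 was less like either. Whether the motifs go with this likeness was not tested. The sequences and starts are those of RefSeq on GRCm38.p6, all 7 members had an entry, and capitals mark exact matches, on either strand, to the letters GGGGATTCC, AANNGAAA or CCAAT. H2-K1 had 2 starts there, of which the first listed was used, and its matches belong to that start.
H2-K1, chr17:34000348-34000597, minus strand: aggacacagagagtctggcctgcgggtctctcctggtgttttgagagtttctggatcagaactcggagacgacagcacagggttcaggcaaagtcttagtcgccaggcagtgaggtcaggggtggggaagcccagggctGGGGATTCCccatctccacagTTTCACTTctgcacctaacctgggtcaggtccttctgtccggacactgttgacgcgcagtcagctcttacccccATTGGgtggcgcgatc
H2-Q10, chr17:35469839-35470088, plus strand: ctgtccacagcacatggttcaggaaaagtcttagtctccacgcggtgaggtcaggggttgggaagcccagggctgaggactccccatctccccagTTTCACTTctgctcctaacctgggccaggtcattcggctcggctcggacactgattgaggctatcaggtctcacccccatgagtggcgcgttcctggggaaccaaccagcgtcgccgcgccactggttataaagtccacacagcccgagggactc
B2m, chr2:122147437-122147686, plus strand: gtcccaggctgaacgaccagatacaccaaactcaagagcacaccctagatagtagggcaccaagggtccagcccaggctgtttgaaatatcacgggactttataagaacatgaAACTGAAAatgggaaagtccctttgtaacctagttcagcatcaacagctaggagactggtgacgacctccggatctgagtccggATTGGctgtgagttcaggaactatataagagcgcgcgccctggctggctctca
The H2-K1 stretch held 1 match to each of the 3 motifs, and the matches did not overlap. H2-Q10 held 1 match to AANNGAAA and none to the other 2, and B2m held 1 match to AANNGAAA and 1 to CCAAT. Of the other members, H2-D1 and H2-Q7 also held GGGGATTCC, whereas H2-Q4 and H2-T23 did not, and AANNGAAA was found in all 7. CCAAT was found in every member except H2-Q10. H2-Q4, which held CCAAT, was less like H2-K1 (Spearman's rho = 0.01 over line means) and B2m (0.29) than H2-Q10 was (0.41 and 0.33). Of 32851 promoter stretches of the same length, 21.3% held AANNGAAA, 33.8% held CCAAT and 0.213% held GGGGATTCC. A match is a description of the letters and not of binding, and the lines' own promoter sequences were not used here.

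Levels were compared as FPKM, fragments per kilobase of exon scaled to the mapped fragments of the library, which is a level per length and so can be set side by side between genes. B2m was the most abundant member, at 1554 ± 379 FPKM (SD over 29 line means), followed by H2-Q10 at 1017 ± 529 and H2-K1 at 379 ± 179. H2-D1 stood at 179 ± 66.3 FPKM, H2-T23 at 114 ± 57.3, H2-Q4 at 30.8 ± 15.2 and H2-Q7 at 16.0 ± 8.55. H2-Q10 exceeded H2-K1 in all 55 mice, H2-K1 exceeded H2-D1 in 51, B2m exceeded H2-Q10 in 47, H2-T23 exceeded H2-Q4 in 45, and H2-D1 exceeded H2-T23 and H2-Q4 exceeded H2-Q7 in 43 each. The secreted H2-Q10 was thus the most abundant heavy chain transcript per length in these livers. The 7 members differed in their order between mice at every step except that from H2-Q10 to H2-K1.

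**Figure D1:**
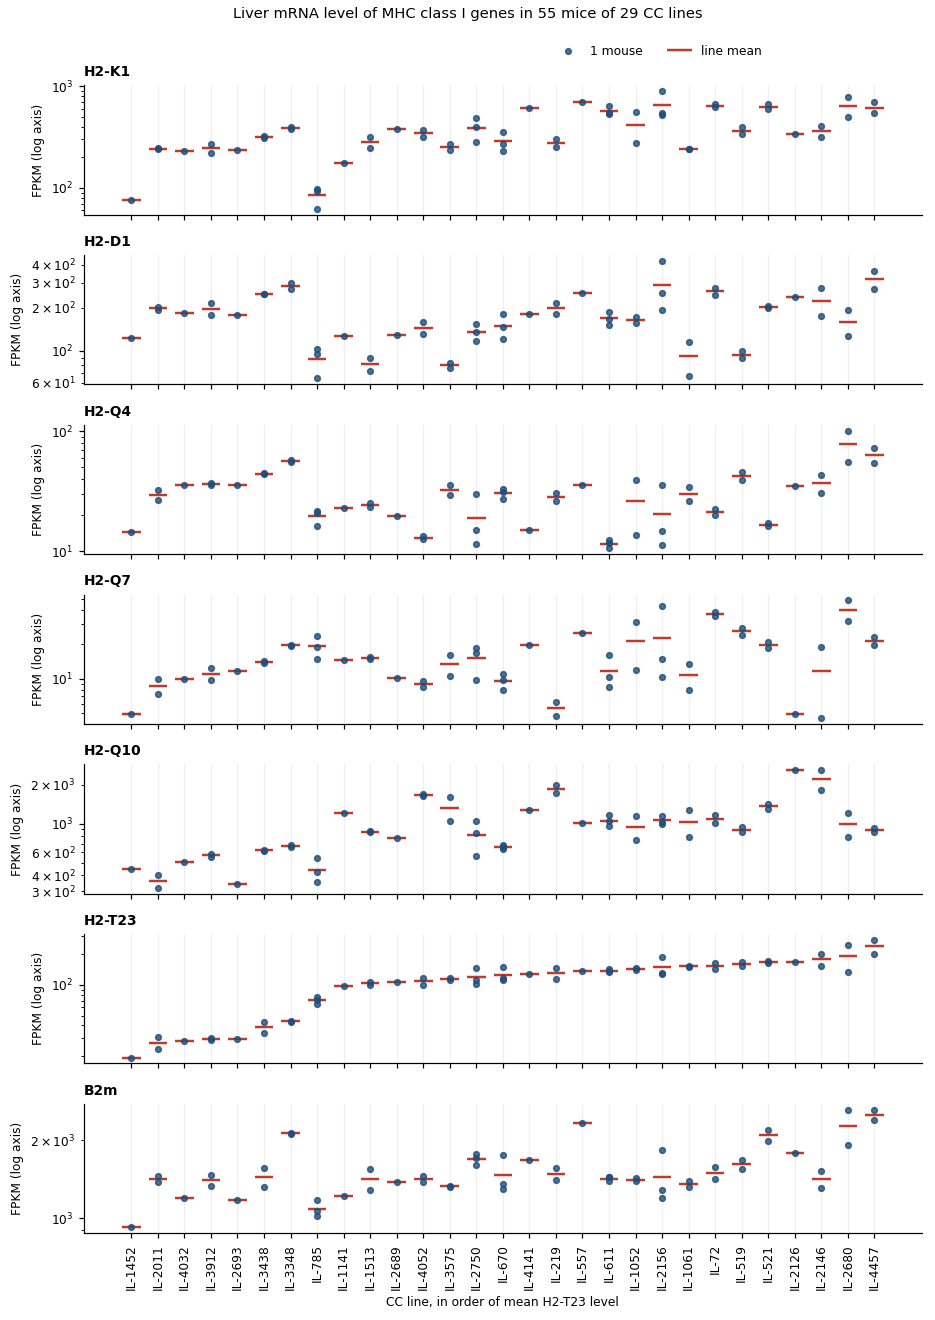
FPKM (log axis) of the 7 class I genes in 55 mice (points) of 29 CC lines, with the mean of each line as a bar and the lines in order of mean H2-T23 level. H2-T23 is at most 44.3 FPKM in the mice of the 7 lines on the left and at least 64.8 FPKM in those of the others, and H2-K1 is lowest in IL-1452 and IL-785.

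To ask whether the members differ among lines, the estimated counts of the 47 mice in the 21 lines with at least 2 mice were fitted across all genes with edgeR's quasi-likelihood F test. All 7 members passed an adjusted p of 0.05, but so did 13523 of the 15285 genes tested (88.5%), so that passing it does not set the members apart. The adjusted p was 1.84e-12 for H2-T23, 8.36e-08 for H2-K1, 1.59e-07 for H2-D1 and 1.81e-07 for H2-Q10. It was 1.37e-06 for H2-Q4, 1.23e-05 for B2m and 4.42e-04 for H2-Q7. Ordered by p, H2-T23 was gene 102 of the 15285, H2-K1 gene 1174 and H2-Q7 gene 7300. Without IL-1052 and IL-2750 all 7 members still passed.

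How much of a member's variation lay between lines was described by the intraclass correlation, the share of variance between lines, of the van der Waerden scores of rounded FPKM in all 55 mice. It was 0.85 ± 0.06 (jackknife SE over lines) for H2-Q10, 0.80 ± 0.07 for H2-T23, 0.76 ± 0.08 for H2-K1 and 0.75 ± 0.07 for H2-D1. For H2-Q4 it was 0.69 ± 0.14, for B2m 0.68 ± 0.15 and for H2-Q7 0.54 ± 0.17. The median of the members was 0.75, and the median over all 5949 kept genes was 0.59, with an interquartile range of 0.49 to 0.69. H2-Q10 exceeded 97.8% of the kept genes, H2-T23 94.1%, H2-K1 88.3% and H2-Q7 36.6%. H2-Q7, the member with the lowest level and a high share of words in other genes, was the only one under the median of all genes.

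**Figure D2:**
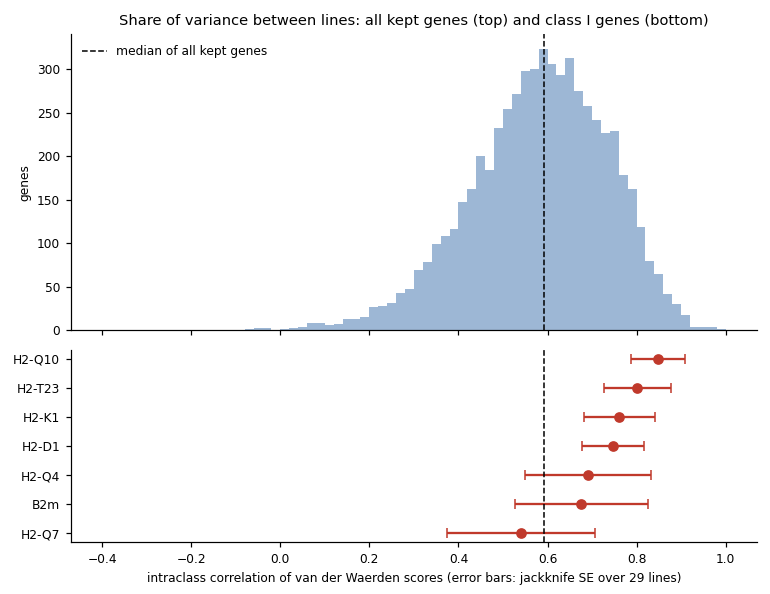
Top, histogram of the intraclass correlation of 5949 kept genes; bottom, the same measure for the 7 class I genes with the jackknife SE over 29 lines as error bars, and the median of all kept genes (0.59) as a dashed line in both. Of the 7 genes, 6 lie to the right of the line and H2-Q7, at 0.54, lies to its left.

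H2-T23 (Qa-1; chr17:36166718-36169800 on NCBIM37) had the widest range of the 7. It was lowest in the single mouse of IL-1452, at 19.3 FPKM, and highest in the mice of IL-4457, at 201 and 277 FPKM, so that the line means differed 12.4-fold. Its line means fell into separate ranges, with 7 lines (IL-1452, IL-2011, IL-4032, IL-3912, IL-2693, IL-3438 and IL-3348) at 19.3 to 43.7 FPKM and the other 22 at 70.4 to 239 FPKM. No mouse of the lower range came above 44.3 FPKM and no mouse of the upper range below 64.8. Just above that gap stood IL-785, with 64.8, 70.6 and 75.7 FPKM in its 3 mice. Against the mean of the other lines, H2-T23 was lower in 5 of the 21 lines tested and higher in 10. Over all pairs of a gene and a line tested, 18.1% were called (10.9% higher and 7.18% lower). The lower calls were IL-2011 (log2 difference -1.97 ± 0.18 SE, edgeR adjusted p = 1.79e-09), IL-3912 (-1.94 ± 0.18), IL-3438 (-1.46 ± 0.17), IL-3348 (-1.40 ± 0.17) and IL-785 (-0.58 ± 0.13). The largest positive difference was that of IL-4457, at 1.29 ± 0.13. IL-1052 was among the lines called higher, and without IL-1052 and IL-2750 the number of calls was also 15.

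H2-K1 (chr17:34132962-34137278) was lowest in IL-1452, at 75.2 FPKM in its only mouse, and in IL-785, at 62.5, 93.7 and 98.3 FPKM. The next line, IL-1141, stood at 177 FPKM, and the remaining lines rose without a wider gap to IL-557, at 706 FPKM in its only mouse. The highest single mouse was replicate 2 of IL-2156, at 894 FPKM, whose line mates had 519 and 541. The log2 difference of IL-785 from the other lines was -2.14 ± 0.23 (edgeR adjusted p = 2.53e-08), the largest in size of any member in any line tested. H2-K1 was called higher in 6 lines, by 0.76 to 0.92 on the log2 scale (IL-2680, IL-611, IL-521, IL-72, IL-2156 and IL-4457), and IL-785 was the only line called lower. Leaving out replicate 2 of IL-1052 raised the number of lines called from 7 to 11, the widest change that any mouse made for this gene. In IL-1052, H2-K1 was at 553 FPKM in replicate 1 and at 276 in replicate 2, a 2.00-fold difference that was the widest between line mates for this gene. Without IL-1052 and IL-2750, H2-K1 was called in 10 lines. H2-K2, a class I gene near H2-K1 that was chosen here after its values were seen, ran from 0.60 FPKM in IL-521 to 107 FPKM in IL-785, the highest line.

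H2-D1 (chr17:35399675-35404444) varied less. Its lowest line was IL-3575, at 76.6 and 82.2 FPKM, and its highest IL-4457, at 272 and 361 FPKM, a 3.98-fold difference of the means. The 5 lowest lines (IL-3575, IL-1513, IL-785, IL-1061 and IL-519) had means up to 94.2 FPKM and were set off from IL-1452, at 123 FPKM. All 5 were called lower, with log2 differences of -0.75 to -1.27. Another 6 lines were called higher, at 0.49 to 1.14, with the largest in IL-4457 (1.14 ± 0.18, edgeR adjusted p = 5.42e-06). Without IL-1052 and IL-2750 the number of calls was also 11. In IL-2156 the 3 mice had 192, 254 and 426 FPKM, and in IL-1061 the 2 mice had 67.3 and 116 FPKM, so that line mates overlapped several other lines.

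The Q region genes were low except for H2-Q10. H2-Q10 (chr17:35607034-35611508) was highest in IL-2126 (2579 FPKM, 1 mouse), IL-2146 (1818 and 2578), IL-219 (1722 and 1974) and IL-4052 (1639 and 1696), whose means were set off from those of the other 25 lines. Among the mice there was little gap, since replicate 2 of IL-3575 had 1617 FPKM and its line mate 1038. It was lowest in IL-2693, at 340 FPKM in 1 mouse, and in IL-2011, at 320 and 399. The 3 of these highest lines that could be tested were called higher, with IL-2146 at 1.31 ± 0.18 on the log2 scale (edgeR adjusted p = 1.21e-06), and IL-2011, IL-785 and IL-3912 were called lower, at -1.40, -1.09 and -0.84. Without IL-1052 and IL-2750 the number of lines called for H2-Q10 rose from 6 to 11.

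H2-Q4 (chr17:35516562-35522235) was lowest in IL-611, at 10.6, 11.6 and 12.5 FPKM, and in IL-4052, at 12.6 and 13.3 FPKM. The 3 lines above the widest gap were IL-3348 (55.3 and 57.2 FPKM), IL-4457 (54.1 and 72.1) and IL-2680 (55.0 and 101). It was called higher in 3 lines and lower in 4, with log2 differences from -1.08 ± 0.21 in IL-611 to 1.35 ± 0.20 in IL-2680 (edgeR adjusted p = 9.69e-06). H2-Q7 (chr17:35576100-35580714) was lowest in IL-1452 and IL-2126, at 4.95 FPKM in the single mouse of each, and highest in IL-2680, at 31.7 and 48.4 FPKM. It had 3 calls, IL-219 lower (-1.66 ± 0.43) and IL-72 and IL-2680 higher (1.37 ± 0.31 and 1.29 ± 0.31). These were 14.3% of its 21 lines, under the 18.1% of all pairs of a gene and a line. The calls of H2-Q7 depended on single mice and ranged from 2 to 6 with 1 mouse left out. They rose from 3 to 5 without replicate 1 or replicate 2 of IL-2156 and to 6 without replicate 1 of IL-2146. Without IL-1052 and IL-2750, H2-Q7 was called in 4 lines and H2-Q4 in 7.

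B2m (chr2:121973422-121978819) had the narrowest range. It was lowest in IL-1452, at 924 FPKM in 1 mouse, and in IL-785, at 1018, 1064 and 1173 FPKM, and highest in IL-4457, at 2403 and 2622 FPKM, a 2.72-fold difference of the means. It was called lower in IL-785 (-0.47 ± 0.11) and higher in IL-2680, IL-2750, IL-521 and IL-4457, the largest being IL-4457 (0.83 ± 0.12, edgeR adjusted p = 9.46e-07). The calls in IL-2750 and IL-521 were marginal (edgeR adjusted p = 0.0415 and 0.0452). Without a filter on low counts B2m was called in 3 lines instead of 5, and without IL-1052 and IL-2750 in 4. IL-1452 was thus the lowest line for H2-K1, H2-T23 and B2m and shared the lowest value of H2-Q7, but rests on 1 mouse, and IL-4457 was the highest line for H2-D1, H2-T23 and B2m.

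Over the 7 members and 21 lines, 54 of 147 pairs of a member and a line were called (36.7%), against 18.1% of the pairs of all genes, 34 of them higher and 20 lower. H2-T23 gave 15 of them, H2-D1 11, H2-K1 and H2-Q4 7 each, H2-Q10 6, B2m 5 and H2-Q7 3. The members lie on 1 chromosome segment, apart from B2m, and are not independent of each other. Without IL-1052 and IL-2750, 62 of the pairs of the remaining 19 lines were called. The share called over all genes in that fit is not given here, so the 62 cannot be set against the 18.1% or read as a result about the members.

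**Figure D3:**
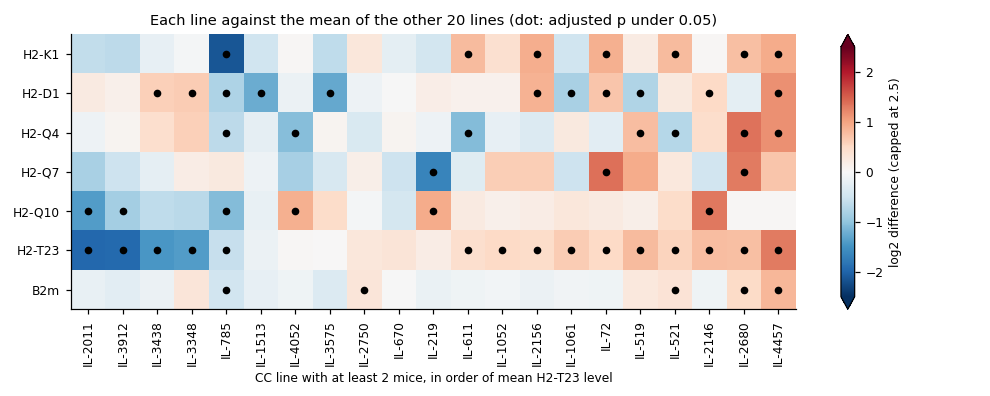
Log2 difference of each of 21 lines (columns, ordered by mean H2-T23 level) from the mean of the other 20, for the 7 class I genes (rows), with a dot where the edgeR adjusted p was under 0.05. Of 147 cells, 54 carry a dot, and IL-785 is called lower for every gene but H2-Q7.

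Although the lines differed, most adjacent lines that could be compared overlapped in level. When the lines were ordered by the mean of a member and adjacent lines with at least 2 mice each were compared, the values of the mice were free of overlap in 4 of 16 such pairs for H2-Q10, 2 of 16 for H2-Q4, 2 of 15 for H2-Q7 and 1 of 13 for H2-T23. For H2-K1, H2-D1 and B2m no adjacent pair was free of overlap, of 16, 16 and 15. Adjacent lines are the closest in mean because of the ordering, and gaps beside a line with 1 mouse were not counted. The counts therefore do not say how far apart lines were in general. Line mates were close in most lines. The median ratio of the higher to the lower line mate was 1.10 for B2m, 1.15 for H2-Q10, 1.17 for H2-T23, 1.19 for H2-Q4, 1.21 for H2-K1, 1.22 for H2-D1 and 1.35 for H2-Q7. Line mates differed over 2-fold in 8 cases, which lay in 4 lines. In IL-1052, one of the lines whose mice went against their labels, these were H2-K1 (2.00-fold), H2-Q4 (13.7 and 38.9 FPKM) and H2-Q7 (31.2 and 11.8 FPKM), and in IL-2750, the other such line, H2-Q4 (2.64-fold). In IL-2156 they were H2-D1 (2.22-fold), H2-Q4 and H2-Q7, and in IL-2146 H2-Q7. Replicate 2 of IL-2156 had 35.4 FPKM of H2-Q4 and 43.5 FPKM of H2-Q7, whereas its line mates had 11.3 and 14.8 FPKM of H2-Q4 and 10.4 and 14.8 FPKM of H2-Q7. In IL-2146, replicate 1 had 18.9 FPKM of H2-Q7 and replicate 2 had 4.53. Over all genes, the mice of IL-2156 and IL-2146 correlated best with a line mate, and those of IL-1052 and IL-2750 did not.

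The isoform percentages of heavy chain genes also differed among lines. They rest on the annotated isoforms and on alignment to 1 reference, and the part of these in the differences below was not tested. The isoform-ratio trait of a gene was the percentage of its expression that the deposited tables assign to 1 isoform, the one with the most distinct rounded values. All 5 members with such a trait (H2-K1, H2-D1, H2-Q4, H2-Q7 and H2-T23) differed among the 21 lines in a limma F test over all traits, of which 32.9% passed. The adjusted p was 8.17e-04 for H2-D1, 9.14e-04 for H2-K1, 0.00211 for H2-Q4, 0.00637 for H2-Q7 and 0.00697 for H2-T23. H2-Q10 and B2m had none, since 1 isoform made up 96.4% to 99.4% of H2-Q10 in every mouse and B2m has a single annotated isoform.

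For H2-K1 the assigned percentages came close to a switch between ENSMUST00000025181 and ENSMUST00000172912. The former averaged under 10% in 12 lines and over 75% in 9, and the latter under 10% in 10 lines and over 75% in 12. The coding parts of these 2 isoforms differ by 27 bases at the start of the last coding exon, in the part that encodes the cytoplasmic tail, which the former has and the latter lacks. They also differ in where the transcript starts and ends. The 27 bases are in capitals here, within the coding sequence on either side (NCBIM37, minus strand; the stretch spans 1 intron).
H2-K1, chr17:34133420-34133596: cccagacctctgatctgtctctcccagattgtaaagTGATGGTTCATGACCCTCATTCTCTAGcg
In IL-611 the isoform with these bases took 87.0% ± 0.74 (SD, n = 3) of H2-K1, and in IL-3348 it took 0.0% in both mice, where the isoform without them took 92.2% ± 0.40. In IL-2689, with 1 mouse, each took close to an equal share, at 47.4% and 47.9%. The lines at the lower end for H2-T23 other than IL-1452, namely IL-2011, IL-4032, IL-3912, IL-2693, IL-3438 and IL-3348, all had 91.0% to 92.2% of the isoform without the 27 bases, and IL-4457, the line with the highest H2-T23 level, had 90.9%. This isoform averaged over 75% in 12 lines, so it was not particular to the lines with low H2-T23. The check of labels showed here too. The isoform with the 27 bases took 86.2% in replicate 1 of IL-1052 and 0.0% in replicate 2, and 84.7%, 0.0% and 80.5% in the 3 mice of IL-2750. In IL-1061, whose mice were closest to each other over all genes, the percentages were 0.20 and 37.0.

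IL-1452, the lowest line for H2-K1, had the highest share of another isoform. ENSMUST00000046131, which lacks coding exon 3 and so the α2 domain, took 80.7% of H2-K1 there, in 1 mouse. It took 27.7% ± 6.0 (SD, n = 3) in IL-785, the next lowest line for H2-K1 level, and averaged 11.5% over lines, with a minimum of 1.73% in IL-72. The part of the alignment to 1 reference in this percentage was not tested.

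For H2-D1 the 2 main isoforms, ENSMUST00000087173 and ENSMUST00000172785, differ by 9 bases at the end of coding exon 4, the α3 exon, and in where the transcript starts. The 9 bases, present in the former, are in capitals within the coding sequence on either side, again across 1 intron (NCBIM37, plus strand), and begin with GT, the letters that most introns start with.
H2-D1, chr17:35402969-35403167: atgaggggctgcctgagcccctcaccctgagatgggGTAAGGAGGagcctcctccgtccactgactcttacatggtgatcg
The isoform with the 9 bases ran from 22.9% ± 10.5 (SD, n = 3) in IL-785 to 92.5% ± 0.79 (SD, n = 2) in IL-3575. The other line means were spread between these without a clear division. The SD between line mates was 0.02 in IL-3348 (mean 63.6%) but 3.17 in IL-4457, 7.62 in IL-1052 and 10.1 in IL-2750, and it was widest in IL-1061, at 22.4. IL-3575, IL-2680, IL-519 and IL-1513 were at 88.9% to 92.5%, and these lines included 3 of the 5 with the lowest H2-D1 level, but also IL-2680 at 160 FPKM. In IL-1061 the 2 mice again differed, at 94.7% and 63.0%. The intraclass correlation of this isoform percentage was 0.85 ± 0.07 and that of the H2-K1 isoform without the 27 bases 0.82 ± 0.06, where the median over all 6650 isoform-ratio traits was 0.25.

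Isoform percentages of H2-Q4, H2-Q7 and H2-T23 varied as well. ENSMUST00000078205 of H2-Q4 ran from 4.20% in IL-557 (1 mouse) to 68.1% in IL-2693 (1 mouse), and ENSMUST00000113887, with a short extra coding exon, from 0.0% in IL-2156 to 47.1% ± 0.58 (SD, n = 2) in IL-219. ENSMUST00000071951 of H2-Q7 ran from 31.3% in IL-2126 (1 mouse) to 97.0% ± 1.9 (SD, n = 3) in IL-785 and was the most used isoform in 28 of 29 lines. ENSMUST00000102678 of H2-T23 was the most used in all 29 lines, from 85.2% ± 2.5 (SD, n = 2) in IL-2011 to 99.3% in IL-2126. Its lower percentages were those of the 7 lines with the lowest H2-T23 level, from 85.2% in IL-2011 to 89.1% ± 0.76 (SD, n = 2) in IL-3438, and the other 22 lines began at 98.0% ± 0.42 (SD, n = 2) in IL-72. The rest of H2-T23 in IL-2011 was ENSMUST00000174161, a transcript with a retained intron, at 14.9% ± 2.5, where IL-4141 had 0.23%.

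**Figure D4:**
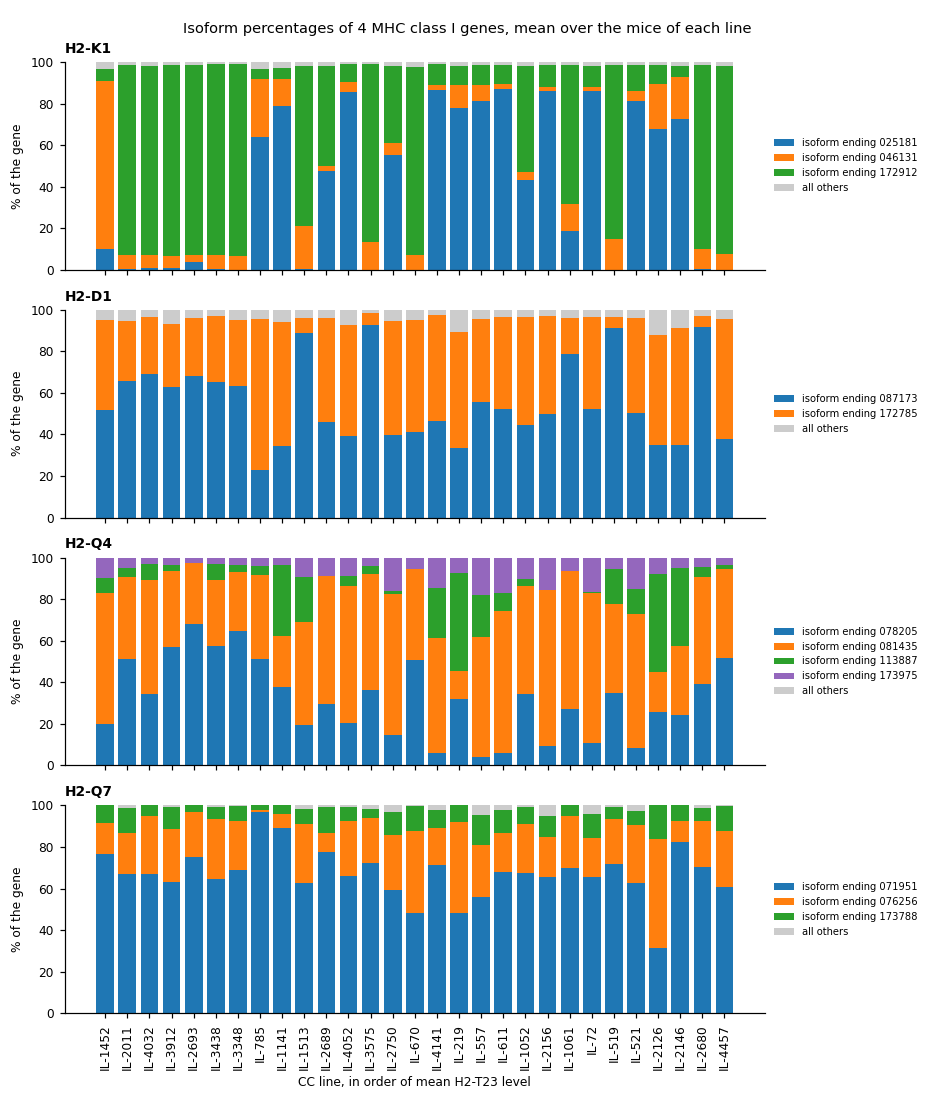
Mean percentage of each gene's expression assigned to its isoforms (stacked bars, named by the last 6 digits of the transcript identifier) in 29 CC lines, ordered by mean H2-T23 level, for H2-K1, H2-D1, H2-Q4 and H2-Q7. H2-K1 is nearly all one or the other of 2 isoforms in most lines, and IL-1452 alone is mostly the isoform without coding exon 3.

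The members did not all follow the same order of lines. Over the 29 line means, Spearman's rho was 0.78 between H2-K1 and B2m (Pearson r = 0.73), 0.68 between H2-Q10 and H2-T23 (r = 0.59), 0.67 between H2-K1 and H2-T23 (r = 0.64) and 0.66 between H2-K1 and H2-Q7 (r = 0.66). It was 0.52 between the classical genes H2-K1 and H2-D1, and 0.01 between H2-K1 and H2-Q4. The lowest was -0.18, between H2-Q4 and H2-Q10. Leaving out the 2 lines farthest from the median of the first gene gave r = 0.74, 0.58, 0.66 and 0.64 for the 4 pairs named first. Other pairs changed more. For example, r fell from 0.59 to 0.30 between H2-Q4 and B2m and from 0.57 to 0.40 between H2-T23 and B2m. Between H2-K1 and H2-Q4 it rose from 0.17 to 0.22. The points share libraries, normalisation and, for the 6 heavy chains, part of their reads, and the values are descriptions with no test.

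**Figure D5:**
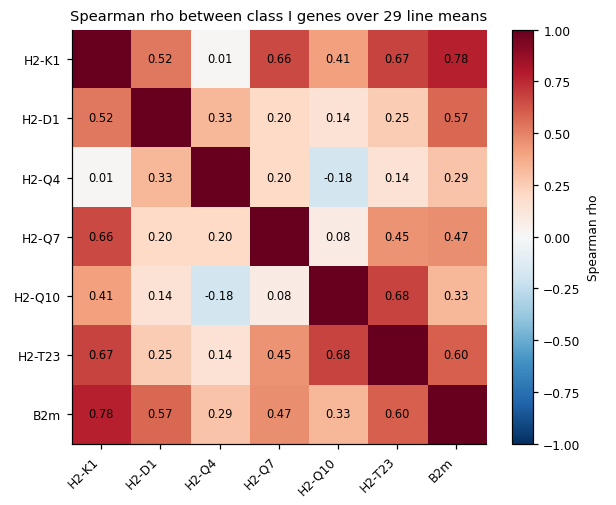
Spearman's rho between the 7 class I genes over 29 line means of FPKM, from -1 (blue) to 1 (red). H2-K1 with B2m, at 0.78, is the highest pair and H2-Q4 with H2-Q10, at -0.18, the lowest.

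The genes whose line means were most like a member's came from the class I system in several cases. For H2-K1 the 5 most alike were B2m (rho = 0.78), Tapbp (0.69), Ankrd57 (0.69), Gm13203 (0.68) and H2-T23 (0.67). Tapbp encodes tapasin, which holds class I molecules in the peptide-loading complex, and it was also the gene most like H2-D1, at 0.83, followed by Derl1 (0.79), Cyp21a2-ps, Etnk1 and Rnf186. H2-Q4 was most like its neighbour H2-Q8 (0.85), then C4a, Gm10260, RP23-108F2.6 and Hsf1. H2-Q7 was most like H2-K1 (0.66), Rab11b, Psmb9, Tap1 and Rps25-ps1, where Psmb9 is a subunit of the immunoproteasome and Tap1 a subunit of the peptide transporter. H2-Q10 and H2-T23 had the T region gene H2-T22 in common as the most alike (0.80 and 0.82). H2-Q10 was then most like H2-T23, Ebpl, Cyp21a1 and Srxn1, and H2-T23 most like Psmb8 (0.72), H2-Q10, H2-K1 and Tchhl1, the last at a mean of 0.056 FPKM. B2m was most like Lbr (0.81), H2-K1 (0.78), Sarnp, AW112010 and Ccdc59.

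Many of these genes lie close by, among them Tapbp, Psmb9, Tap1 and Psmb8, which start 0.08 to 1.83 Mb from the members they were most like. Of the 20 genes most like each H2 member, 3 (H2-D1) to 8 (H2-Q4) had their start within 5 Mb, whereas such neighbours made up 1.42% to 1.52% of the 11283 genes compared. Of the 20 genes most like B2m none did, and its neighbours made up 0.718%. The variation between lines was not particular to class I genes in the region. Around H2-K1 to H2-T23, with 5 Mb on either side, 165 of 171 genes tested differed among lines (96.5%, against the 88.5% of all genes), and the median intraclass correlation of 106 kept genes was 0.64, members included.

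Mice were also compared by the members alone. By the distance over log2(FPKM + 1) of the 7 members, 25 of 47 mice had a line mate as the nearest mouse. With 170 other genes of the H2 region, 39 of 47 correlated best with a line mate. Among the mice whose nearest mouse belonged to another line were both mice of IL-3912, which were nearest to IL-4032 and IL-3438, lines of the low H2-T23 range. H2-T23 was itself part of the distance, so this nearness is no separate support for grouping these lines. The counts differ in the number of genes and in the measure of likeness, and cannot be compared.

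The other parts of the class I pathway also differed among lines at about the rate of all genes. Among other class I and class I-like genes, 14 of 15 tested passed the test, against 88.5% of all genes. Of these Azgp1 (mean 940 FPKM) did not pass, Cd1d1 (96.5 FPKM) and Fcgrt (56.0 FPKM, the receptor that recycles IgG) did, and H2-T22 ran from 4.47 FPKM in IL-1452 to 76.5 in IL-2680. In the peptide-loading group 13 of 14 passed, led in level by the chaperone Calr (368 FPKM), Pdia3 (156), Canx (88.8) and the proteasome activator subunit Psme2 (72.4). All 8 of the regulators passed. Their summed level, 40.0 to 71.9 FPKM, had a rho of 0.67 with H2-D1 and 0.64 with B2m.

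Interferon raises class I expression in many cells. All 15 interferon-stimulated genes of the list passed the test among lines, where 88.5% of all genes tested passed. The same share is the background for the cell type and class II lists below. Their summed level ran from 61.5 FPKM in IL-1513 to 468 FPKM in IL-557, the line with the highest H2-K1. Iigp1, an interferon-induced GTPase, weighed most in the sum, at a mean of 101 FPKM, and was at 0.38 FPKM in IL-1513. Of the other genes of highest level, Irgm1 (35.1 FPKM) was also lowest in IL-1513, Igtp (26.9) in IL-785 and Irf7 (14.4) in IL-1452. Over the lines the summed level of the 15 genes had a rho of 0.72 with B2m, 0.70 with H2-K1 and 0.66 with H2-T23, but 0.41 with H2-D1 and 0.18 with H2-Q4. Of the cell type lists, the 10 Kupffer cell markers in the tables summed to 36.6 (IL-2126) to 326 FPKM (IL-557), none at 0 in every mouse, with a rho of 0.47 with H2-D1 and 0.38 with H2-K1. The 12 lymphocyte markers, at 0.98 to 12.2 FPKM, had a rho of 0.51 with B2m and 0.45 with H2-K1. The MHC class II list, of which 7 of 7 tested genes passed, summed to 23.0 to 417 FPKM, with a rho of 0.41 with B2m and 0.08 with H2-Q4. All 10 Kupffer cell markers, 6 of the 12 lymphocyte markers and all of the 7 sinusoidal endothelial, 6 stellate and 7 hepatocyte markers passed the test among lines. The sinusoidal endothelial list had at most 0.22 with any member, the stellate cell list 0.27 and the hepatocyte list 0.42. The part of these cells and of interferon in the levels of the members was not tested.

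Since fragments may be moved between near-identical genes, the members were also summed with the other H2 class I genes, 19 in all, as CPM, estimated counts scaled to the library total. The sum ran from 1096 in IL-1452 (1 mouse) to 5184 in IL-2126 (1 mouse), a 4.73-fold difference, and its intraclass correlation was 0.82. Without H2-Q10 it ran from 454 in IL-1452 to 2176 in IL-4457, 4.79-fold, with 0.80. The 6 members held 88.7% to 97.0% of the sum in every line. The summed level assigned to these 19 genes thus varied among lines, as did its division among them. Reads that do not align to the 1 reference, or that are assigned to genes outside the 19, are not in the sum. Their part in its variation was not tested.

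Body weight and age differed between the mice and were tested over the 29 line means in 1 limma model for all genes. No member passed for either, and no gene did (0.0% of 11284 for weight and for age). At an unadjusted p under 0.05, 4 members and 833 genes (7.38%) were related to weight, and no member and 621 genes (5.50%) to age. The slope for weight was 0.10 ± 0.03 (SE) per g on log2(FPKM + 1) for H2-K1, with an adjusted p of 0.652, and 0.06 ± 0.02 for H2-D1, 0.06 ± 0.03 for H2-Q7 and 0.04 ± 0.01 for B2m. For age the largest was H2-Q10, at 0.27 ± 0.13 per week (adjusted p = 0.90).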

How the data were processed

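RNA-Seq of liver poly(A) RNA (stranded library kit, paired reads of 50 bases) was quantified by the authors with RSEM 1.2.18 and Bowtie 2 at default settings, which ignore strand, against mm9 with Ensembl 67. The deposited tables give expected counts, TPM and FPKM for each gene and the isoform percentage (percent of a gene's expression) for each transcript; no replicates were pooled. Per the labels, mice were grouped by CC line only, and replicate numbers follow sample order. The 20.5 to 34.0 M fragments per library set the precision of low genes such as H2-Q7, at 164 to 2107 estimated counts.

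The members and gene lists were chosen with earlier results of these data known. Expected counts were rounded to whole numbers and fitted in edgeR 4.0.16 (TMM, filterByExpr, quasi-likelihood F test over lines and each line against the mean of the others, Benjamini-Hochberg over all genes tested, threshold 0.05) in lines with at least 2 mice. With rules taken from the study's methods, FPKM and isoform percentages were rounded to the larger of 0.5 and a 200th of the maximum, and turned into van der Waerden scores (genes with a maximum of at least 2 FPKM, at least 12 rounded levels for genes and for isoforms, and 1 isoform a gene with several annotated). The 6650 isoform traits so kept need not be the set the study used. limma 3.58.1 tested isoform percentages, and weight with age on line means of log2(FPKM + 1). DESeq2 1.42.0 was an alternative. Named genes were the 7 members, the 5 genes with the highest rho for each, and up to 4 genes of highest mean FPKM per list; lines were named where highest, lowest, beside the widest gap in level or widest apart between line mates. Lines that a test called, or that illustrate an isoform percentage, were named beside it. Genes were placed on NCBIM37 with GENCODE M1 (Ensembl 65), promoters are from RefSeq (GRCm38.p6). The scripts were tested on simulated data.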

Additional observations from a re-analysis of the deposited data

How the results depend on the processing

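All 7 members differed among lines under each of the 7 other settings (RLE size factors, no filter on low counts, without IL-1052 and IL-2750, the DESeq2 likelihood ratio test, limma on log2 FPKM with a pseudocount of 1 or 0.1, and on log2 TPM) and with each of 47 mice left out in turn, when the trend of the dispersion was held at that of all 47 mice. The number of member-line pairs called, 54, ranged from 50 to 62 under 3 settings and from 49 to 60 with 1 mouse left out. The 5 isoform ratios passed, and 0 members passed for weight or age, under every setting run. The median share of variance between lines ranged from 0.75 to 0.79 under 4 settings and from 0.73 to 0.78 with 1 mouse left out. On log2(FPKM + 1) without rounding the share was 0.87 for H2-K1 and 0.94 for H2-T23, each more than 1 SE above the value given. Without a filter on low counts B2m was called in 3 lines instead of 5. No paired analysis was possible because the labels number no replicates and nothing ties a mouse of one line to a mouse of another. Lines with 1 mouse entered no test of lines.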
